A study of Homo sapiens with 8 samples.

Results

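The genes described here are 10 members of the Wnt signalling pathway, chosen by symbol from a table of 26364 genes. They are the ligand genes WNT4, WNT7A and WNT11, the receptor genes FZD5 and FZD6, the receptor ubiquitin ligase genes RNF43 and ZNRF3, and the feedback or target genes AXIN2, TCF7 and DKK1. All 10 were in the table, and 8 had enough reads to be tested, while WNT4 and DKK1 did not. RNA was sequenced from Ishikawa, a human endometrial adenocarcinoma cell line. Cells were given vehicle (DMSO), 100 nM of the glucocorticoid receptor agonist dexamethasone, 10 nM of the estrogen receptor agonist estradiol, or both together, here called the combination, with 2 libraries for each of the 4 groups. All groups are of this 1 line. The sample labels give a treatment time of 8 hr and the treatment protocol gives 1 hr, so the time is uncertain. Nothing in the labels tells if replicate libraries are from separate cultures, so p-values measure only how far these libraries spread, which may be technical.

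Wnt proteins are secreted lipid-modified ligands that bind Frizzled receptors together with the co-receptors LRP5 and LRP6. In the canonical branch this stops a cytoplasmic complex built on AXIN from degrading beta-catenin, which then acts with TCF and LEF factors on target genes, several of which (AXIN2, RNF43, ZNRF3, DKK1) restrain the pathway again. In the endometrium WNT7A is known as a gene of the epithelium and WNT4 as a gene of the stroma.

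Estradiol moved 4 of the 8 tested genes when its effect was averaged over cells with and without dexamethasone. Of all genes, 5.8% were called. The 10 genes were chosen with earlier results of these data known, so these shares cannot test them as a set. WNT11, FZD5 and TCF7 rose, and WNT7A fell. The largest of these changes was that of WNT11, by 1.39 ± 0.25 on the log2 scale (± the standard error of the fit), on at most 48 reads in a library. FZD5 rose by 0.75 ± 0.10 and had at least 87.0 CPM (the count scaled to the size of the library) everywhere. Of the 4 genes, only FZD5 was also called for estradiol in each background by itself. Averaged dexamethasone called 0 of the 8 in edgeR and in DESeq2, with 0 at an unadjusted p under 0.05, where 1.07% of all genes were called and 10.2% had such a p, so 0 of 8 is near the background. Dexamethasone against vehicle also called 0 of 8 (0.965% of all genes). There, however, 3 of 8 had an unadjusted p under 0.05, all higher, against 9.84% of all genes. FZD6, AXIN2, RNF43 and ZNRF3 were called in none of the 8 comparisons made.

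The start-site regions of FZD5, WNT7A and TCF7 are shown because these are the called genes for which such a sequence was at hand. Each runs 5′ to 3′ on the strand of the gene, from 250 bases before the start site to 50 after it, and is taken from RefSeq on the build GRCh38.p14. Of the 10 genes, 6 had an entry, and TCF7 had 2. Capitals mark GGTCA, one arm of the palindrome bound by the estrogen receptor, and the GC box GGGCGG, each on either strand. The FZD5 region is chr2:207769857-207770156 on the minus strand and the WNT7A region is chr3:13880022-13880321 on the minus strand. The TCF7 regions are chr5:134115363-134115662 and chr5:134123368-134123667 on the plus strand.
FZD5: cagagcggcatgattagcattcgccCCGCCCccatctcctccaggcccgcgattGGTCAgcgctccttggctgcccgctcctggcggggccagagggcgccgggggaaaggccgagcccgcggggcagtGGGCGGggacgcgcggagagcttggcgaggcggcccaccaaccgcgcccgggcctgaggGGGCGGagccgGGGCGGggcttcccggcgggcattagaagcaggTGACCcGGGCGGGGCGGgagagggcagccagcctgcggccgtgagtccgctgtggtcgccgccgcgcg
WNT7A: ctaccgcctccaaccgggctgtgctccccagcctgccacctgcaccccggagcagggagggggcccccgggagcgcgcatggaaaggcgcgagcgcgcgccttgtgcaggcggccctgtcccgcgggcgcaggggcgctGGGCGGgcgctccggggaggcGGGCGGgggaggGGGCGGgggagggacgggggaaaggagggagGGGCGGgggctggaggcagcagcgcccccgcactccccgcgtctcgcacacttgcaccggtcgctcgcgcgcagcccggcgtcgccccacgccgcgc
TCF7 upstream start site: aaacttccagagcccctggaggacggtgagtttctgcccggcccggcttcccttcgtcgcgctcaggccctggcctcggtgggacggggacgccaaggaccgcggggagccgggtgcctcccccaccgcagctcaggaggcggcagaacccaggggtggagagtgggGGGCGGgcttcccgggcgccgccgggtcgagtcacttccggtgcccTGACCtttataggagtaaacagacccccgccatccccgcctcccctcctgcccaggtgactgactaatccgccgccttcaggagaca
TCF7 downstream start site: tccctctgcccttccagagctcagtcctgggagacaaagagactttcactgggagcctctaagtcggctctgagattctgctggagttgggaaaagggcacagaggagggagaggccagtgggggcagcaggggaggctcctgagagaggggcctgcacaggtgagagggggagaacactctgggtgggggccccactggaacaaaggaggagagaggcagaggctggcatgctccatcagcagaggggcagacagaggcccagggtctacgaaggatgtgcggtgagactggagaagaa
The FZD5 region holds GGTCA 2 times, 196 bases before the start site on the gene strand and 18 bases before it on the opposite strand. It also holds 6 GC boxes, the last 2 of which share a base. The upstream TCF7 region holds GGTCA 1 time, on the opposite strand and 37 bases before the start site, and 1 GC box. The WNT7A region holds 4 GC boxes and no GGTCA, and the downstream TCF7 region holds neither. Such letters are common: GGTCA occurs in 37.4% and GGGCGG in 45.0% of 35116 regions of this length. Also searched on both strands were the full estrogen response element (in 0.057% of regions, and containing GGTCA), the glucocorticoid response element (0.39%) and the TCF and LEF motif CTTTGAT (2.62%). They had 0 matches in the 8 regions of the 6 genes, which says only that these letters are not in these windows.

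Between 17846211 and 22487333 reads per library were counted in genes, and 14201 genes were tested. The cells expressed all 7 epithelial markers checked, whereas the leukocyte list summed to at most 3.09 CPM, with CD3E at 0, and the endothelial list to at most 10.1 CPM. The fibroblast list summed to 138 to 201 CPM, mostly COL1A1, a collagen gene. The epithelial sum moved with dexamethasone alone, from 3258 and 3834 CPM under vehicle to 4225 and 4724 CPM. Mostly this was keratins: mean KRT8 went from 1416 to 1903 CPM, KRT18 from 733 to 985 and KRT19 from 249 to 387. EPCAM went from 343 to 364 CPM and CDH1 from 554 to 552. In all, 6 of the 7 markers were higher and 1 was lower. For this comparison edgeR called 0 of the 7 (0.965% of all genes) and DESeq2 called 2, KRT18 and KRT19. With the combination the epithelial sum was 3654 and 3879 CPM, overlapping vehicle, and with estradiol alone 3268 and 3451 CPM. The part of this sum in the results on dexamethasone was not tested. Among 7 hormone response genes, averaged dexamethasone raised TSC22D3, PER1 and FKBP5. Averaged estradiol raised PGR and GREB1 and lowered TSC22D3, PER1 and ESR1, while NR3C1 was called for neither hormone. With dexamethasone, estradiol took mean TSC22D3 from 134 to 66.8 CPM and PER1 from 127 to 93.1 CPM. Without dexamethasone these went from 14.3 to 11.3 CPM and from 19.0 to 17.1 CPM, and DESeq2 called neither for estradiol against vehicle. PGR was at 8.91 CPM in dexamethasone replicate 1 against 2.47 CPM in replicate 2, and GREB1 at 17.7 against 6.85 CPM. In these genes, both raised by averaged estradiol, dexamethasone replicate 1 stood apart. In bulk RNA, fewer cells of a type and less RNA per cell cannot be told apart.

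Levels of different genes were ordered per length, as CPM per kilobase of exon over the 8 libraries, with exon lengths from GENCODE 29 that may differ from the annotation used for counting. FZD6 was highest, at a median of 44.4 CPM per kb (range 41.9 to 49.8). FZD5 (21.1, range 13.0 to 29.6) and WNT7A (13.6, range 10.97 to 18.3) followed, with ranges that overlapped. ZNRF3 stood below them at 5.79 (range 4.48 to 6.28). AXIN2 (1.15), TCF7 (0.981), WNT11 (0.468) and RNF43 (0.327) formed a lower group in which each range overlapped the next. DKK1 (0.0841) and WNT4 (0.0443) were lowest, with overlapping ranges.

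Among the ligands, WNT7A, whose product patterns the epithelium of the uterus, had the most reads. Vehicle libraries had 63.6 and 68.8 CPM, dexamethasone libraries 80.4 and 83.7 CPM, estradiol libraries 50.2 and 60.9 CPM, and combination libraries 50.6 and 50.5 CPM. Both dexamethasone libraries were above all others, and all 4 libraries with estradiol were below both vehicle libraries. Averaged over both backgrounds WNT7A had a log2 fold change of -0.47 ± 0.08 with estradiol (95% interval -0.64 to -0.30, adjusted p = 0.00439 in edgeR's quasi-likelihood test). Against dexamethasone alone, the combination was lower by a log2 fold change of -0.70 ± 0.11 (adjusted p = 0.00812). This call was lost without dexamethasone replicate 2 and without each combination library (adjusted p up to 0.0917), while the averaged call was kept when any 1 library was left out (adjusted p up to 0.0242). The single-hormone differences from vehicle did not pass, with log2 fold changes of 0.31 ± 0.11 for dexamethasone (adjusted p = 0.341) and -0.25 ± 0.11 for estradiol (adjusted p = 0.405). The latter was -0.12 without estradiol replicate 1 and -0.41 without replicate 2.

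WNT11, a ligand best known for signalling without beta-catenin, was scarce. Its reads numbered 12 and 6 under vehicle, 19 and 14 under dexamethasone, 34 and 48 under estradiol, and 30 and 30 under the combination. In CPM these were 0.630 and 0.292, 0.915 and 0.786, 1.91 and 2.12, and 1.33 and 1.35. The CPM ranges of the 4 groups did not overlap, with vehicle lowest and estradiol highest. The steps between neighbouring groups did not pass in edgeR. Dexamethasone against vehicle had an adjusted p of 0.519, the combination against dexamethasone 0.371 and the combination against estradiol 0.848. Against vehicle, WNT11 rose with estradiol by a log2 fold change of 2.14 ± 0.36 (adjusted p = 0.0128 in edgeR). With the combination its log2 fold change of 1.54 ± 0.38 did not pass (adjusted p = 0.0743). The averaged estradiol effect of 1.39 ± 0.25 (95% interval 0.84 to 1.94, adjusted p = 0.00794) was kept when any 1 library was left out (adjusted p up to 0.0458). The call against vehicle was lost without DMSO replicate 2 and without each estradiol library (adjusted p up to 0.153). The antisense gene AP000785.1 covers 8.5% of the exon bases of WNT11 in GENCODE 29, and the strand setting of the counting is not known.

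WNT4, the remaining ligand, had between 0 and 5 reads in a library. The 0 was in dexamethasone replicate 2, which allows up to 0.168 CPM (3 reads, counting error only). It was not tested.

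**Figure D1:**
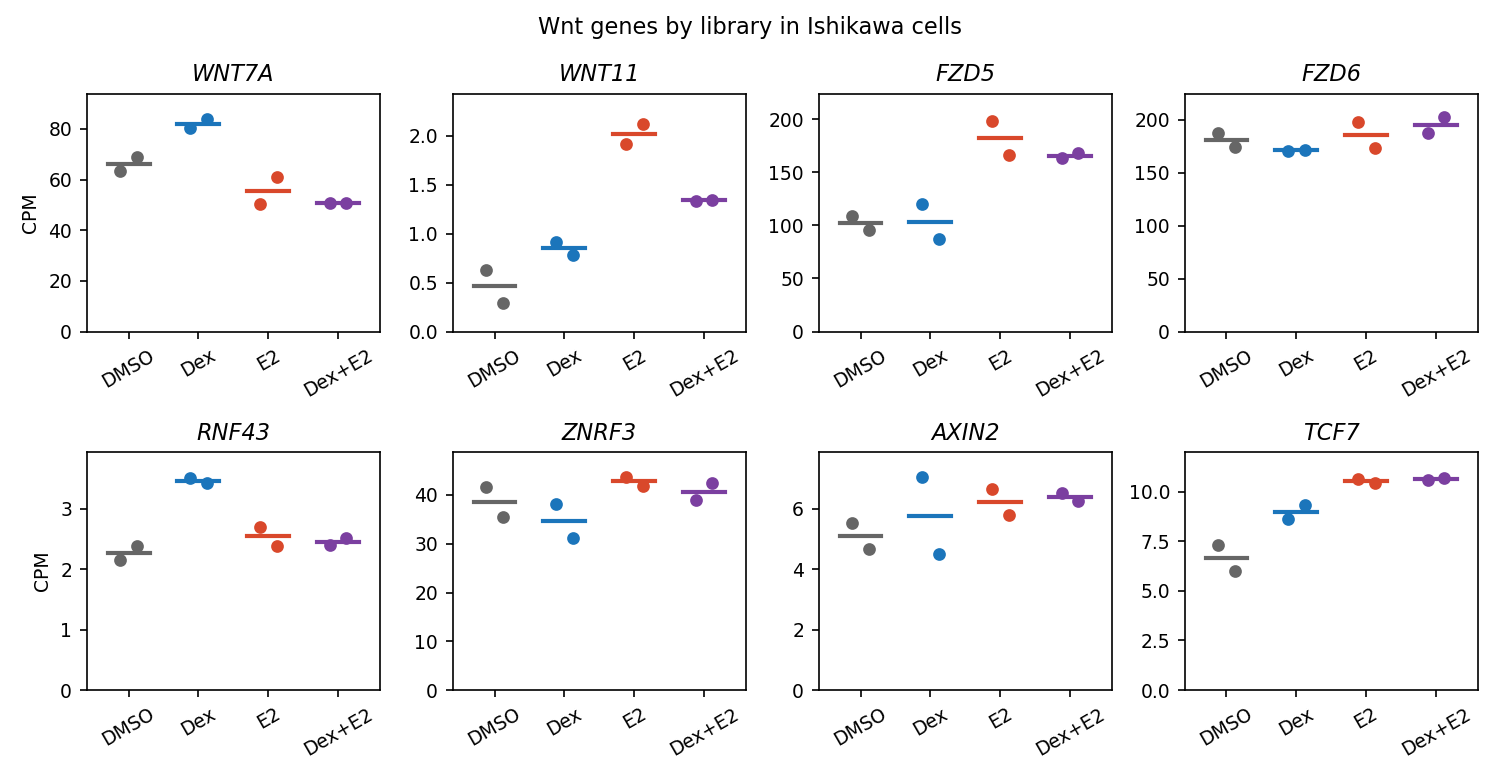
Level in CPM of the 8 tested genes in each library (points) with the group mean (bars), by treatment, each panel with its own axis from 0. FZD5 and WNT11 stand higher in all 4 libraries with estradiol, WNT7A stands lower in them, and the group means of FZD6 lie between 171 and 195 CPM.

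Of the receptor genes FZD5 and FZD6, FZD5 moved with estradiol. It encodes a Frizzled receptor of epithelial cells. Vehicle libraries had 109 and 95.8 CPM, dexamethasone libraries 120.2 and 87.0 CPM, estradiol libraries 198 and 166 CPM, and combination libraries 163 and 169 CPM. All 4 libraries with estradiol were above all 4 without it. FZD5 rose by 0.83 ± 0.15 on the log2 scale with estradiol against vehicle (adjusted p = 0.0165) and by 0.70 ± 0.15 with the combination against vehicle (adjusted p = 0.0335). It rose by 0.68 ± 0.15 with the combination against dexamethasone alone (adjusted p = 0.0374). The groups compared there are not those of estradiol against vehicle. The p-values of these comparisons are still not independent, because all groups were fitted together with a shared estimate of the spread. The averaged estradiol effect, 0.75 ± 0.10 (95% interval 0.53 to 0.98, adjusted p = 0.00172), was kept when any 1 library was left out (adjusted p up to 0.016).

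Each of the pairwise FZD5 calls was lost in some fits with 1 library left out. Such a fit leaves 1 library in a group, so a lost call does not show that the library drives the difference. In these fits the log2 fold change stayed between 0.70 and 0.94 for estradiol against vehicle. For the combination against vehicle it stayed between 0.61 and 0.79. The estradiol call was lost without DMSO replicate 2 and without each estradiol library (adjusted p up to 0.179). Both combination calls were lost without either estradiol or either combination library, and also without DMSO replicate 2 or dexamethasone replicate 2, whichever was in the reference group. Against dexamethasone the log2 fold change was 0.46 without dexamethasone replicate 2 (adjusted p = 0.249) and 0.93 without replicate 1, the library with more PGR. Dexamethasone alone left FZD5 at a log2 difference of 0.02 ± 0.15 from vehicle (95% interval -0.31 to 0.34).

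FZD6, a Frizzled receptor better known from planar cell polarity, had 187 and 174 CPM under vehicle and 170.3 and 171 CPM under dexamethasone. It had 197 and 173 CPM under estradiol and 187 and 203 CPM under the combination. The libraries with estradiol overlapped those without it. Its averaged log2 differences were 0.11 ± 0.07 for estradiol (95% interval -0.04 to 0.26) and 0.00 ± 0.07 for dexamethasone (95% interval -0.16 to 0.15), so a change of the size seen for FZD5 lies outside both intervals. Per kilobase FZD6 was above FZD5 in every library, with group means of 44.4 and 15.3 CPM per kb under vehicle and 45.6 and 27.2 CPM per kb under estradiol.

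The ligases RNF43 and ZNRF3 remove Frizzled receptors from the cell surface. RNF43 had 2.15 and 2.38 CPM under vehicle, 3.52 and 3.42 CPM under dexamethasone, 2.70 and 2.38 CPM under estradiol, and 2.40 and 2.51 CPM under the combination. Both libraries with dexamethasone alone were above the 6 others. Neither dexamethasone against vehicle (log2 fold change 0.61 ± 0.21, 95% interval 0.15 to 1.07, adjusted p = 0.331) nor the combination against dexamethasone (-0.50 ± 0.21, adjusted p = 0.252) passed. In GENCODE 29 a same-strand read-through gene shares 57.6% of the exon bases of RNF43 and the antisense gene TSPOAP1-AS1 covers 20.3% of them, so its counts are uncertain. ZNRF3 had 41.6 and 35.5 CPM under vehicle, 38.1 and 31.2 CPM under dexamethasone, 43.8 and 41.9 CPM under estradiol, and 39.0 and 42.4 CPM under the combination. Its estradiol libraries lay above its vehicle libraries and its combination libraries overlapped them. The averaged estradiol difference of 0.19 ± 0.09 did not pass (adjusted p = 0.252).

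AXIN2, a scaffold of the degradation complex and a widely used readout of canonical signalling, had 5.51 and 4.67 CPM under vehicle and 7.03 and 4.49 CPM under dexamethasone. It had 6.64 and 5.78 CPM under estradiol and 6.52 and 6.24 CPM under the combination. The dexamethasone libraries enclosed all the others, with the higher value in replicate 1. The averaged estradiol difference was 0.21 ± 0.15 (95% interval -0.12 to 0.55, adjusted p = 0.472), an interval that holds 0. Another same-strand gene, AC004805.1, shares 25.2% of its exon bases.

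TCF7, which encodes a transcription factor that binds beta-catenin, had 7.30 and 6.03 CPM under vehicle and 8.62 and 9.32 CPM under dexamethasone. It had 10.6 and 10.4 CPM under estradiol and 10.6 and 10.7 CPM under the combination. The vehicle libraries were lowest, those with dexamethasone alone were next, and the 4 with estradiol were highest. TCF7 rose with the combination by 0.68 ± 0.15 on the log2 scale (adjusted p = 0.0362), and with estradiol alone the difference of 0.66 ± 0.15 did not pass (adjusted p = 0.0501). Its averaged estradiol effect was 0.46 ± 0.10 (adjusted p = 0.0254). Added to dexamethasone, estradiol gave a difference of 0.25 ± 0.14 that did not pass (95% interval -0.06 to 0.56, adjusted p = 0.412). The averaged call was kept only without DMSO replicate 1 and lost without each other library (adjusted p up to 0.0974). The combination call was lost without DMSO replicate 2 and without each library of the estradiol and combination groups (adjusted p up to 0.24).

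DKK1, a secreted antagonist that binds LRP5 and LRP6, had between 1 and 6 reads in a library, or 0.0444 to 0.269 CPM, and was not tested.

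**Figure D2:**
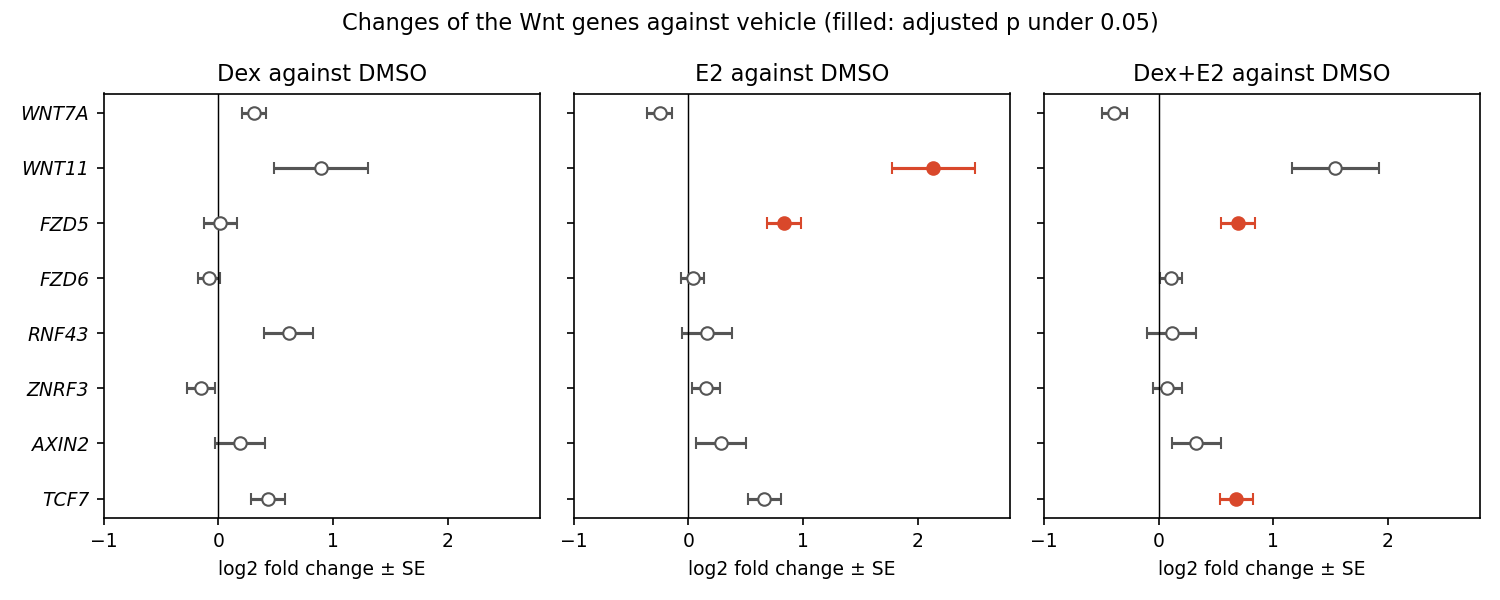
Log2 fold change against DMSO (± standard error) of the 8 tested genes for each treatment, filled where the adjusted p was under 0.05. FZD5 is filled with estradiol (0.83) and with the combination (0.70), WNT11 with estradiol (2.14) and TCF7 with the combination (0.68), and none is filled with dexamethasone.

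Dexamethasone against vehicle called 0 of the 8 tested genes in edgeR and in DESeq2, with 0.965% of all genes called in edgeR. At an unadjusted p under 0.05 there were 3 of 8 (WNT7A, TCF7 and RNF43, all higher), against 9.84% of all genes. Estradiol against vehicle called 2 of 8, both higher, where 1.8% of all genes were called and 1.19% were called higher. The combination against vehicle called 2 of 8, both higher, where 2.19% of all genes were called and 1.48% were called higher. These comparisons share the vehicle libraries. With estradiol, 6 of 8 genes were above vehicle with no overlap of libraries, as were 18.3% of all genes. The median log2 fold change of the 8 genes was 0.25 with dexamethasone, 0.22 with estradiol and 0.22 with the combination, and that of all tested genes was 0.00 in each.

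Adding dexamethasone to estradiol called 0 of 8 in edgeR and in DESeq2, where 0.275% of all genes were called, and 0 of 8 had an unadjusted p under 0.05, against 6.37% of all genes. The largest difference was that of WNT11, at -0.59 ± 0.30 on the log2 scale (95% interval -1.25 to 0.07). Adding estradiol to dexamethasone called 2 of 8, against 2.67% of all genes. These were FZD5, higher as were 0.824% of all genes, and WNT7A, lower as were 1.84%.

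The averaged estradiol effect was called for 4 of 8, against 5.8% of all genes. There were 3 higher (2.54% of all genes) and 1 lower (3.26%). The same 4 had an unadjusted p under 0.05, against 20.1% of all genes. In the same 3 genes the 4 libraries with estradiol lay above the 4 without it (5.57% of all genes), and in WNT7A they lay below (5.89%). The averaged dexamethasone effect was called for 0 of 8 by edgeR and DESeq2, against 1.07% of all genes, and 0 of 8 had an unadjusted p under 0.05, against 10.2%.

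The estradiol effect in both backgrounds was compared by the interaction, the effect with dexamethasone minus that without it. It was called for 0 of 8 genes by edgeR and DESeq2, against 0.0211% of all genes, and 2 of 8 had an unadjusted p under 0.05, against 5.16%. For WNT11 the effect was 2.14 ± 0.36 without and 0.65 ± 0.34 with dexamethasone (interaction -1.49 ± 0.51, adjusted p = 0.84). For WNT7A it was -0.25 ± 0.11 without and -0.70 ± 0.11 with it (interaction -0.45 ± 0.15, adjusted p = 0.84). Neither passed, and the WNT7A interaction was -0.29 without estradiol replicate 2. That of FZD5 was -0.15 ± 0.21 (95% interval -0.61 to 0.30) and that of TCF7 -0.41 ± 0.20 (95% interval -0.86 to 0.04).

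**Figure D3:**
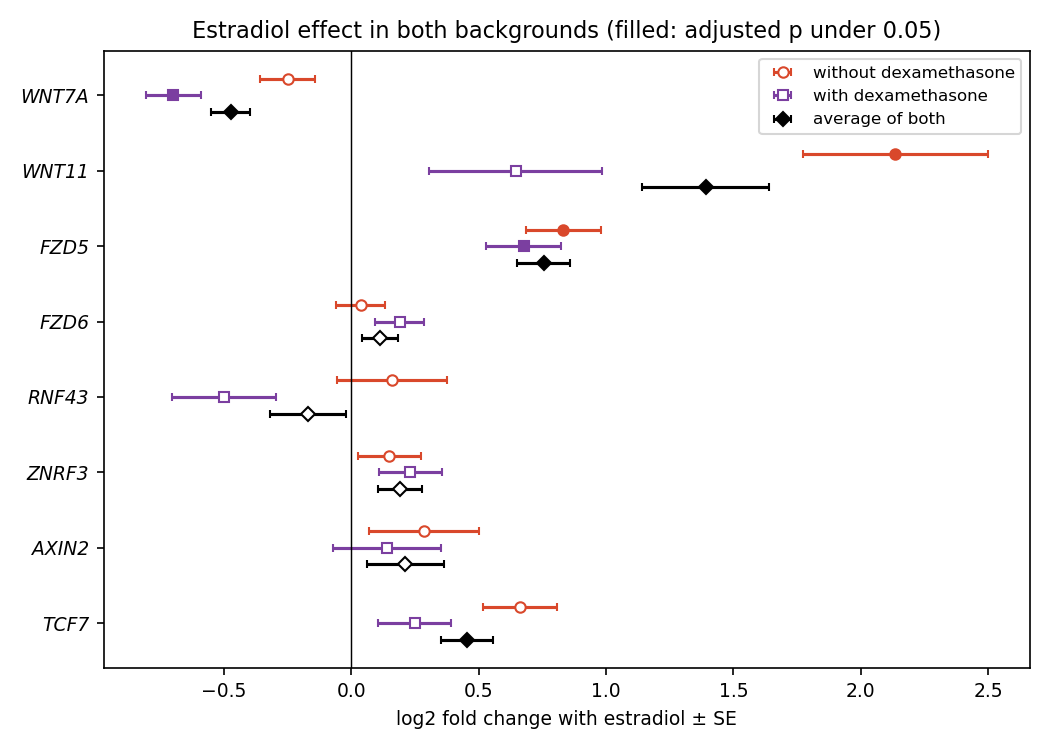
Log2 fold change with estradiol (± standard error) of the 8 tested genes without dexamethasone (circles), with it (squares) and averaged over both (diamonds), filled where the adjusted p was under 0.05. The averaged effect is filled for WNT7A (-0.47), WNT11 (1.39), FZD5 (0.75) and TCF7 (0.46).

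Around these 10 genes, 95 other genes of the pathway were listed by role, and 74 of them were tested. Averaged estradiol was called for 5 of the 74, 2 higher and 3 lower, where 5.8% of all genes were called (2.54% higher and 3.26% lower). Averaged dexamethasone was called for 1, NKD2, where 1.07% of all genes were called. Both counts are near the background. The median log2 fold change of the 74 was 0.00 in both, as for all genes.

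NKD2, which encodes an inhibitor that binds Dishevelled, had 11.02 and 11.3 CPM under vehicle, 28.1 and 26.8 CPM under dexamethasone, 13.0 and 15.0 CPM under estradiol, and 28.9 and 25.9 CPM under the combination. The 4 libraries with dexamethasone were above the 4 without it. NKD2 rose with dexamethasone by 1.29 ± 0.12 on the log2 scale (adjusted p = 0.000425) and with the combination against vehicle by 1.29 ± 0.12 (adjusted p = 0.000297). Against estradiol the combination was higher by 0.97 ± 0.12 (adjusted p = 0.00476), a call lost without estradiol or combination replicate 1 (adjusted p up to 0.0981). The averaged effect of 1.13 ± 0.09 was kept when any 1 library was left out (adjusted p up to 0.00108).

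By role, WNT11 and WNT7A were the called genes among 11 tested of 19 ligand genes for averaged estradiol. Here and in the roles that follow, the share of all genes called for this effect is 5.8%. Among 15 tested receptor and co-receptor genes FZD5 and FZD9 were higher. FZD9, another Frizzled receptor gene, had 5.80 ± 1.29 CPM under vehicle, 7.54 ± 1.26 CPM under estradiol and 8.73 ± 0.0863 CPM under the combination (mean ± SD, n = 2). Its averaged effect of 0.57 ± 0.14 (adjusted p = 0.0348) was kept only without DMSO replicate 2 and lost without each other library (adjusted p up to 0.144). FZD7 and FZD4 did not pass, with FZD7 at a log2 fold change of -0.42 ± 0.11 with estradiol (adjusted p = 0.104) and FZD4 at -0.32 ± 0.10 with dexamethasone (adjusted p = 0.273).

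Among 6 tested inhibitors APCDD1, which encodes a membrane inhibitor of Wnt signalling, was higher (0.58 ± 0.13, adjusted p = 0.0289). This call was kept only without DMSO replicate 1 or estradiol replicate 2 (adjusted p up to 0.11 without the others). APCDD1 had 3.39 ± 0.111 CPM under vehicle, 4.54 ± 0.0875 CPM under dexamethasone, 4.91 ± 1.02 CPM under estradiol and 7.01 ± 0.247 CPM under the combination. The combination rose over vehicle by 1.05 ± 0.19 on the log2 scale (adjusted p = 0.0122), a call lost without DMSO replicate 2 and without each combination library (adjusted p up to 0.0872). NOTUM, a secreted Wnt deacylase gene, did not pass (0.54 ± 0.34 with dexamethasone, adjusted p = 0.65).

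Among 13 tested nuclear factors TCF7 was higher and 2 others were lower. BCL9L, a coactivator of beta-catenin, fell from 150.3 ± 4.55 CPM under vehicle to 108 ± 2.17 CPM under estradiol (log2 fold change -0.48 ± 0.09, adjusted p = 0.0283), a call lost without any vehicle or estradiol library (adjusted p up to 0.219). Its averaged effect of -0.44 ± 0.07 (adjusted p = 0.00305) was kept when any 1 library was left out (adjusted p up to 0.0227). TLE2, a corepressor that binds TCF factors, had an averaged effect of -0.36 ± 0.09 (adjusted p = 0.0459) that was kept only without DMSO or dexamethasone replicate 1 (adjusted p up to 0.193 without the others). Against dexamethasone alone TLE2 was lower with the combination by a log2 fold change of -0.56 ± 0.13 (adjusted p = 0.048), lost without dexamethasone replicate 2 or any estradiol or combination library (adjusted p up to 0.353).

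Among 7 tested planar polarity genes VANGL2 was lower (-0.33 ± 0.07, adjusted p = 0.0273), a call kept only without DMSO replicate 1 or estradiol replicate 2 (adjusted p up to 0.144 without the others). Against dexamethasone alone its combination value was -0.52 ± 0.11 (adjusted p = 0.0279), lost without any dexamethasone or combination library (adjusted p up to 0.26). CELSR1 of the same branch did not pass (-0.19 ± 0.09 with the combination, adjusted p = 0.488).

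Averaged estradiol called 0 of the 2 ligand secretion genes PORCN and WLS, 0 of 4 receptor turnover genes and 0 of 17 cytoplasmic regulators, in edgeR and in DESeq2. At an unadjusted p under 0.05 there were 0, 2 and 0, where 20.1% of all genes had such a p and 5.8% were called. LGR4, an R-spondin receptor, had 69.8 ± 6.34 CPM under vehicle and 92.3 ± 0.662 CPM under the combination, a log2 fold change of 0.40 ± 0.11 that edgeR did not call (adjusted p = 0.114) and DESeq2 did. DVL1, a Dishevelled gene, stood at 0.27 ± 0.14 with estradiol (adjusted p = 0.52).

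Among 15 tested feedback and target genes TCF7 and APCDD1 were higher with averaged estradiol. SP5, a direct target of beta-catenin, had 0.630 and 1.07 CPM under vehicle and 1.93 and 2.02 CPM under dexamethasone (log2 fold change 1.20 ± 0.32, adjusted p = 0.165). CCND1, the cyclin D1 gene, had 863 ± 87.4 CPM under dexamethasone and 615 ± 36.8 CPM under the combination. It fell there by 0.49 on the log2 scale (standard error 0.11, adjusted p = 0.0466), a call lost without any dexamethasone, estradiol or combination library (adjusted p up to 0.332).

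**Figure D4:**
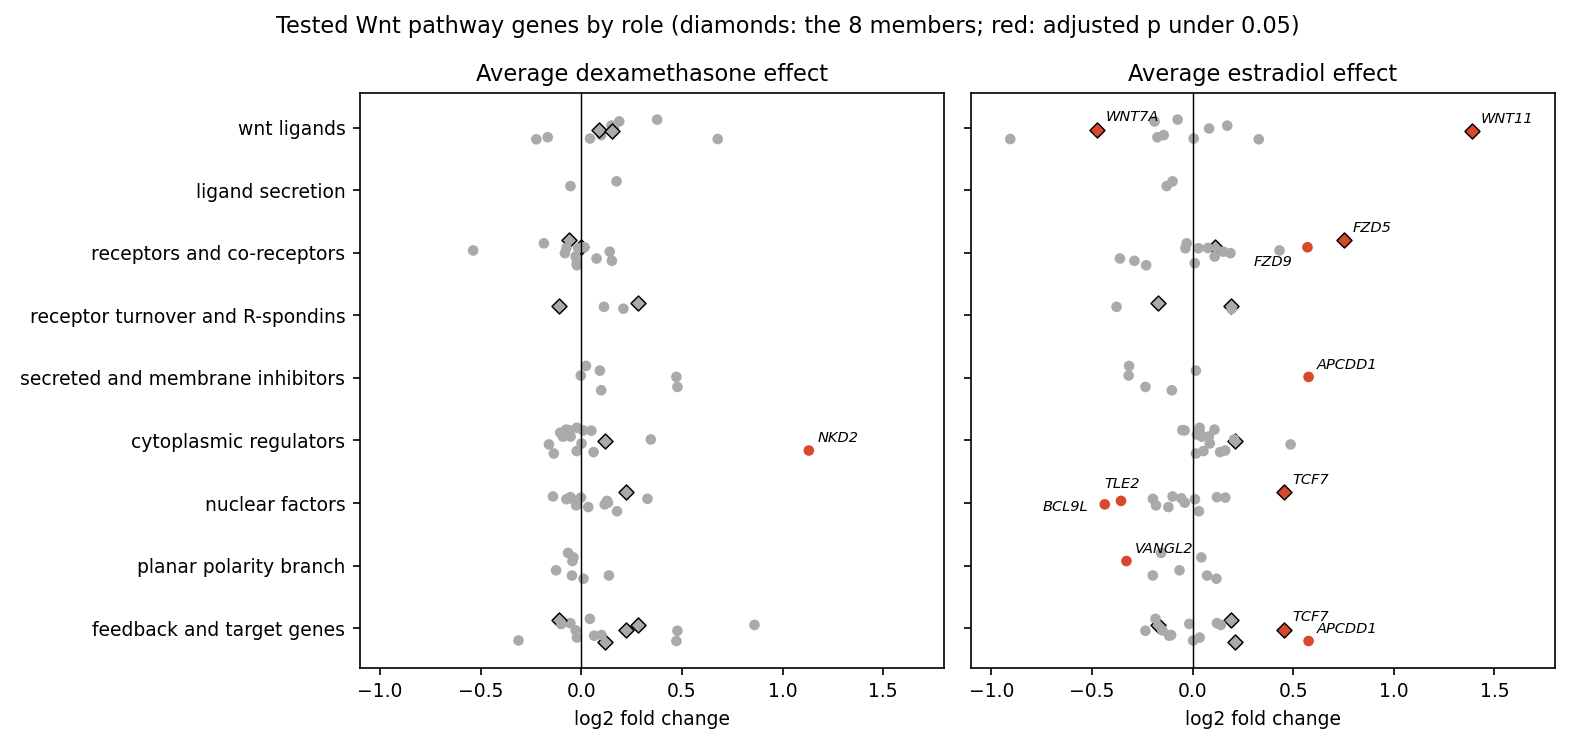
Averaged log2 fold change of dexamethasone (left) and of estradiol (right) for the 82 tested pathway genes by role, each point a gene, diamonds the 8 described here, red and named where the adjusted p was under 0.05. NKD2 (1.13) is the named gene on the left, and genes of the feedback and target row can also stand in another row.

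For each called member the genes most like it were found by the root mean square difference of log2 CPM, centred on each gene's mean, over the 8 libraries. FZD5, whose own spread (SD of log2 CPM) was 0.41, was nearest to DGKE, a diacylglycerol kinase gene (0.06). DGKE had mean levels of 26.4 CPM under vehicle, 25.3 under dexamethasone, 47.2 under estradiol and 43.0 under the combination. THRIL (0.09) and PPARGC1B, a transcriptional coactivator gene (0.10), came next. WNT7A, with a spread of 0.28, was nearest to LIMS2 (0.05), SLC9A3R2 (0.07) and the homeobox gene HOXB9 (0.07). HOXB9 had 26.1 CPM under vehicle, 31.9 under dexamethasone, 20.2 under estradiol and 19.2 under the combination. TCF7 (spread 0.28) was nearest to MKX (0.10), NAP1L4 (0.10) and PRR5L (0.12). WNT11 (spread 0.77) was nearest to AATBC (0.24), GIPC3 (0.28) and CKB (0.29).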

How the data were processed

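Raw counts per gene symbol for 8 libraries, as deposited by the authors, are behind every value. HISAT2 2.0.4, Subread, featureCounts 1.5.1, DESeq2 1.14.1 and the build hg19 are named in the submitters' processing notes. Which annotation and strand setting served the counting is not given in the sources used here. Overlapping genes may therefore share reads. The 2 combination columns have the same number. One matches a sample title by its spelling and was used as replicate 1, and the other was used as an unnumbered library of that group.

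Genes passing filterByExpr by group were scaled by TMM and tested in edgeR 4.0.16 (glmQLFit, glmQLFTest, R 4.3.3), with 4 groups and 4 residual degrees of freedom. The 8 contrasts were 3 treatments against vehicle, 2 of the combination against a single hormone, the interaction, and each hormone averaged over the other. Benjamini-Hochberg adjustment covered the 14201 tested genes within a contrast, not across contrasts, with a threshold of 0.05. A standard error is the log2 fold change over the root of F. CPM use TMM-scaled library sizes. The scripts were tested on simulated data. Alternatives were no filter, above 1 CPM in 2 libraries, RLE scaling, DESeq2 1.42.0, only the groups compared, a replicate block, and leaving out each library; those on pathway genes beyond the 10 were added after seeing the data. The members and gene lists were chosen with earlier results of these data known. Genes named are the 10 members, other listed pathway genes called in any contrast or among the 2 with the smallest p of their role against vehicle, the response and marker genes, and the 3 genes nearest to each called member.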

Additional observations from a re-analysis of the deposited data

How the results depend on the processing

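Of the values of single genes that have an adjusted p under an alternative, 351 kept their side of the threshold, 82 no longer passed, 5 newly passed and 0 changed direction. Of the counts of calls, 229 stayed within 1.5 times and 80 did not. The number of members called stayed at 0 for dexamethasone against DMSO, the combination against estradiol, the interaction and averaged dexamethasone. With single libraries left out it ranged from 0 to 3 for estradiol against DMSO, 0 to 2 for the combination against DMSO, 0 to 2 for the combination against dexamethasone and 3 to 4 for averaged estradiol. In a fit of the 2 compared groups alone, 1 member, FZD5, was called for the combination against DMSO. Without a filter WNT11 was called there too (adjusted p = 0.0242), and TCF7 was called for estradiol against DMSO without a filter and with the stricter one. The cause was not tested.

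All genes called, which set the background shares, moved too. With single libraries left out they numbered 78 to 127 for dexamethasone (137 with all), 58 to 298 for estradiol (256), 157 to 325 for the combination (311), 10 to 68 for it against estradiol (39), 89 to 488 against dexamethasone (379), 1 to 10 for the interaction (3), 82 to 183 for averaged dexamethasone (152) and 422 to 904 for averaged estradiol (824). Without a filter there were 253 for dexamethasone, 442 for estradiol, 132 for the combination against estradiol, 658 against dexamethasone, 32 for the interaction and 295 for averaged dexamethasone. With only the groups compared there were 63 for dexamethasone and 151 for the combination against estradiol. DESeq2 called 70 for the latter and 14 for the interaction. The other pathway genes called ranged with single libraries left out from 0 to 1 for estradiol and for the combination against estradiol, 1 to 2 for the combination, 0 to 5 for it against dexamethasone and 1 to 5 for averaged estradiol.

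The labels do not say that replicate numbers pair libraries. Deviations of same-numbered libraries correlated at 0.24 between DMSO and dexamethasone, 0.15 between DMSO and estradiol and 0.05 between dexamethasone and estradiol. With a replicate block over the 7 numbered libraries, dexamethasone called 0 members and 241 of all genes, and estradiol called 3 members (TCF7 added, adjusted p = 0.0424), 2 other pathway genes and 442 of all genes. Only dexamethasone and estradiol against DMSO were fitted with this block. The contrasts with the combination, among them the interaction and both averaged effects, were not. In that group 1 library has no usable number. Depth limits WNT4, DKK1 and WNT11, with 0 to 48 reads in a library.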

Other observations

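WNT10A, a ligand gene outside the 10, had mean levels of 1.72 CPM under vehicle, 2.88 under dexamethasone, 2.22 under estradiol and 1.72 under the combination. It was not called by edgeR (dexamethasone against DMSO, log2 fold change 0.75 ± 0.24, adjusted p = 0.277). WNT6 was not called either (estradiol against DMSO, -1.25 ± 0.49, adjusted p = 0.33).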
